A study of Mus musculus with 6 samples.

Results

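The 36 genes described here encode soluble hydrolases, membrane proteins and regulators of the lysosome. They were taken by gene symbol from a list of lysosomal genes, and all 36 were among the 17666 genes of the deposited table. No cutoff on a measured value picked them, but the list was chosen with earlier results of these data known. RNA sequencing compared auditory nerves of 3 mice labelled FactorB KO with those of 3 mice labelled wildtype. The label FactorB KO names a knockout of Cfb, which encodes complement factor B, in young adults on a C57 background, and the mice labelled wildtype were young C57 adults. Mice of both labels were 1.5 to 2.5 months old. Each sample was the nerve tissue dissected from the 2 cochleas of 1 mouse. For sex and for the design of the knockout allele, no information is given in the sources used here. These are bulk samples, in which fewer cells of a type and less RNA per cell cannot be told apart.

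Lysosomes are acidic compartments in which proteins, glycans, glycosaminoglycans and sphingolipids are broken down by dedicated hydrolases. A vacuolar proton pump keeps the lumen acidic, membrane proteins such as LAMP1 and LAMP2 line it, and transcription factors of the TFEB family drive many lysosomal genes together through a short shared promoter motif. In peripheral nerve, lysosomal enzymes of Schwann cells and macrophages take part in the turnover of myelin lipids, and inherited loss of several of them, such as GALC or ARSA, causes demyelinating disease.

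Cfb itself went against the labels. It had 336, 351 and 376 normalized counts in libraries labelled FactorB KO, against 55, 39 and 116 in libraries labelled wildtype, a log2 difference of 2.47 (adjusted p = 0.107; 2.91 and 0.00348 without wildtype replicate 3). The authors' deposited table gave Cfb a 5.08-fold higher level under the FactorB KO label, with a false discovery rate of 1.8e-06. Every direction given here is therefore between libraries as labelled. Normalized counts are gene counts that the authors scaled per sample; they summed to between 38675077 and 41496282 per library, and the number of reads behind them is unknown. Markers of the labelled tissue were present: the summed level of 18 spiral ganglion neuron genes was 511028 to 614102 in the libraries labelled FactorB KO and 368037 to 634716 in those labelled wildtype, and no marker was at 0. That of 14 peripheral myelin genes was 462051 to 558518 in the libraries labelled FactorB KO and 459751 to 819860 in those labelled wildtype, again with no marker at 0. Wildtype replicate 3 stood apart from the other libraries, and the 36 genes' values that move by over 1.5 times without it are given with and without it.

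No lysosomal gene of the 36 passed the test. By limma over all 17666 genes, 0 of 36 had an adjusted p under 0.05 and the lowest was 0.176, for Asah1; 28 genes in all, or 0.158%, passed. In the authors' deposited table, too, 0 of the 36 genes had a false discovery rate under 0.05, against 7.39% of the 15605 genes with a rate, and the lowest rate was 0.0596, again for Asah1. The 36 genes had mean normalized counts between 758.3 for Sgsh in libraries labelled wildtype and 85423 for Psap in the libraries labelled FactorB KO. The 95% interval of the difference lay within a 2-fold change in either direction for 34 of them, the exceptions being Ctsh and Ctsl, and within a 1.5-fold change for 23.

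Most of the small differences pointed one way. The level was lower in the libraries labelled FactorB KO for 27 of 36 genes, or 75.0%, against 49.2% of all genes, and the median log2 difference was -0.10, against 0.01 over all genes. At an unadjusted p under 0.05, 3 genes were lower (Asah1, Ctsl and Ctsh) and 1 was higher (Gaa), against 9.2% of all genes lower and 10.8% higher. For 12 genes every library labelled FactorB KO lay below every library labelled wildtype, which is 33.3% of the 36 against 14.9% of all genes. The reverse held for 3 genes, Gaa, Idua and Gla, or 8.33% against 13.6%. Among the 10329 genes with a mean of at least 500, a level all 36 reach, the share without overlap was 19.3% for lower and 15.3% for higher genes. Together the 36 genes held 0.799% to 0.802% of all normalized counts in libraries labelled FactorB KO, and 0.810%, 0.850% and 0.926% in wildtype replicates 1, 2 and 3. The 3 shares of the libraries labelled FactorB KO were thus nearly equal and all below the lowest wildtype share. The summed counts themselves overlapped. They were 316620, 327028 and 324527 in libraries labelled FactorB KO, against 324288, 328778 and 384407 in libraries labelled wildtype. Psap, Ctsb and Ctsd made up 49.3% to 54.2% of each sum.

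**Figure D1:**
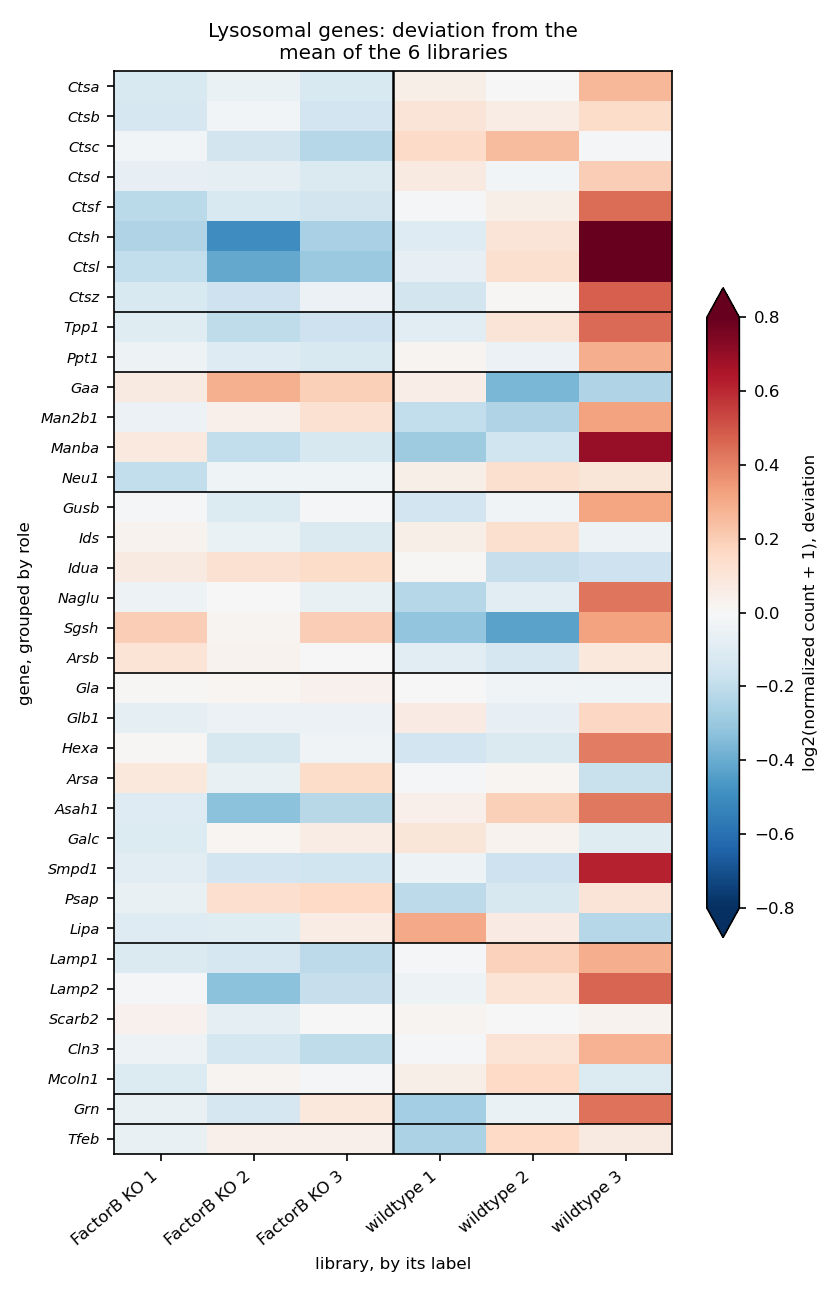
Deviation of each lysosomal gene from its mean over the 6 libraries, as log2(normalized count + 1), with libraries labelled FactorB KO on the left of the vertical line, wildtype on the right, and horizontal lines between roles; colours are capped at 0.8. Wildtype replicate 3 held the highest value for 22 of the 36 genes, with Ctsh and Ctsl the darkest cells.

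Part of this direction rested on 1 library. Wildtype replicate 3 had the highest level of all 6 libraries for 22 of the 36 genes, or 61.1%, against 27.6% of all genes. Its values were 0.75 to 1.99 times the mean of wildtype replicates 1 and 2, and at least 1.3 times that mean for 14 genes. Ctsh (1.99), Manba (1.89), Ctsl (1.75), Smpd1 (1.64) and Sgsh (1.62) had the highest of these ratios. Without wildtype replicate 3 the number of lower genes was 22 of 36 and the median log2 difference was -0.07. Over all genes tested in that setting, 8878 were lower and 8765 higher. Then, too, 0 of 36 genes passed by limma (lowest adjusted p 0.0601, for Sgsh), although 566 genes of the table, or 3.21%, did, and 6 of the 36 genes had an unadjusted p under 0.05 against 29.3% of all genes tested. The 3 libraries labelled FactorB KO resembled one another closely: the median SD on the log2 scale over the 36 genes was 0.07 in the libraries labelled FactorB KO and 0.18 in those labelled wildtype. The SD was larger among the wildtype libraries for 32 of the 36 genes, a share of 88.9% that is near the 87.4% of genes with a mean of at least 500.

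**Figure D2:**
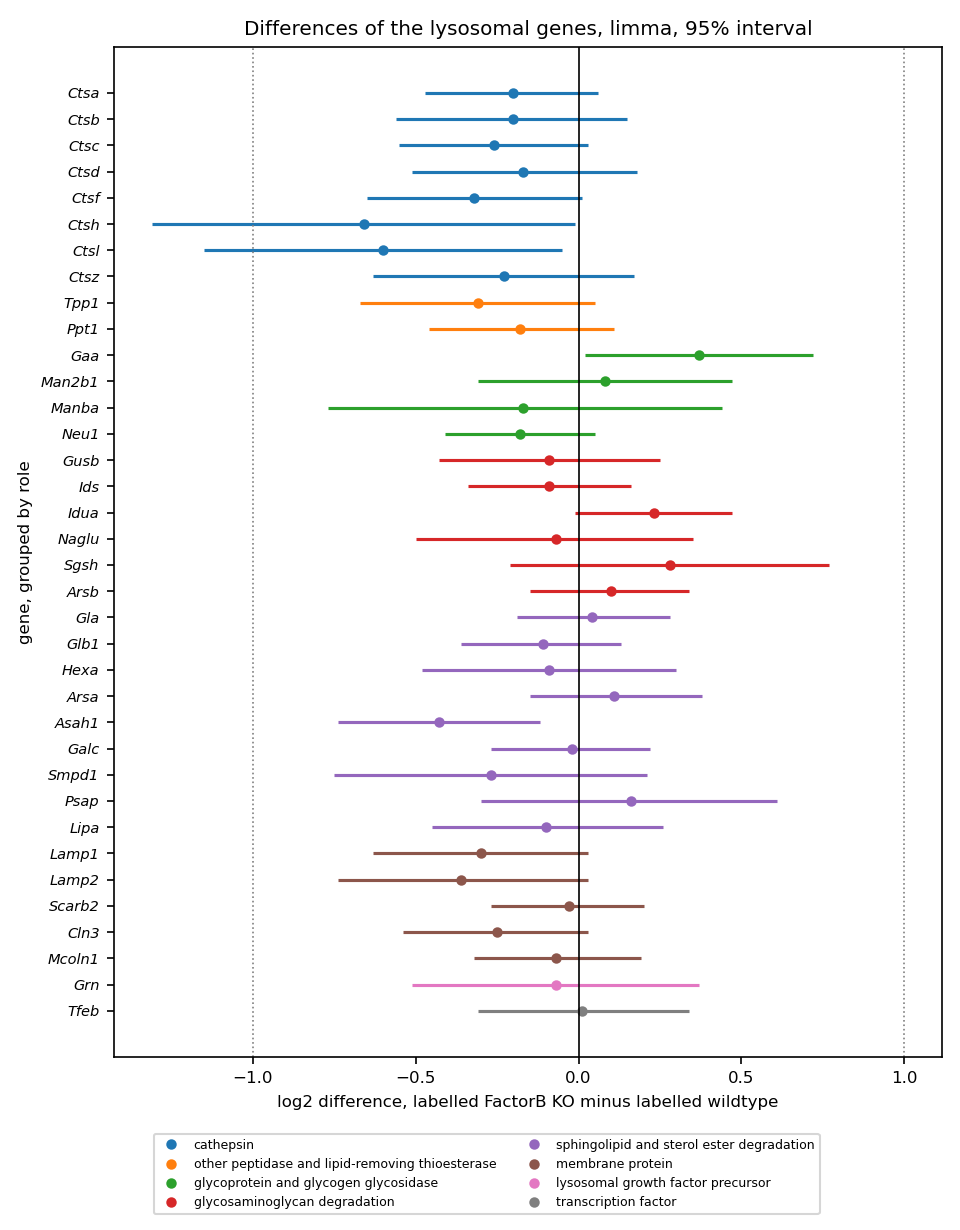
Log2 difference of each lysosomal gene, libraries labelled FactorB KO minus libraries labelled wildtype, with its 95% interval by limma (n = 3 per label), coloured by role; dotted lines mark a 2-fold change. All 8 cathepsins lie left of 0, and the intervals of Ctsh and Ctsl are the ones that reach past a 2-fold change.

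The cathepsins, the main lysosomal peptidases, were all at a lower level in the libraries labelled FactorB KO (8 of 8, median log2 difference -0.24, and -0.18 without wildtype replicate 3, where 8 of 8 were still lower). For 7 of the 8, Ctsz being the exception, every library labelled FactorB KO lay below every library labelled wildtype, against 14.9% of all genes and 19.3% of genes with a mean of at least 500. Ctsh, an aminopeptidase, had 1650, 1384 and 1634 normalized counts in libraries labelled FactorB KO, against 1816, 2099 and 3888 in libraries labelled wildtype. The mean was 1556 ± 149.2 under the FactorB KO label and 2601 ± 1124 under the wildtype label (SD, n = 3 each), and the wildtype mean was pulled up by replicate 3. Its log2 difference was -0.66 (SE 0.28, 95% interval -1.31 to -0.01, adjusted p = 0.244), and -0.33 without that library (adjusted p = 0.131).

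Ctsl, a broad endopeptidase, behaved alike: it had 8382, 7245 and 7841 normalized counts in libraries labelled FactorB KO, against 9200, 10497 and 17248 in libraries labelled wildtype. All 3 wildtype values were higher, replicate 3 by far the most. For Ctsl the log2 difference was -0.60 (SE 0.23, 95% interval -1.15 to -0.05, adjusted p = 0.224), and -0.33 without wildtype replicate 3 (adjusted p = 0.111). Ctsf, a further cysteine peptidase, had 3325, 3548 and 3480 normalized counts in libraries labelled FactorB KO, against 3821, 3987 and 5259 in libraries labelled wildtype. Its log2 difference was -0.32 (SE 0.14, adjusted p = 0.262), and -0.18 without wildtype replicate 3.

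Ctsb, the cathepsin with the most counts, had 46107, 49976 and 45539 normalized counts in libraries labelled FactorB KO, against 54354, 52729 and 56033 in libraries labelled wildtype. Here wildtype replicate 3 was close to the other wildtype libraries, and the groups still did not overlap. The log2 difference of Ctsb was -0.20 (SE 0.15, adjusted p = 0.480), a level 1.15-fold lower, and it ranged from -0.25 to -0.18 when any 1 library was left out. Ctsd, the aspartic cathepsin, averaged 38286 ± 677.8 normalized counts in libraries labelled FactorB KO and 43036 ± 3295 in those labelled wildtype (SD, n = 3 each), a log2 difference of -0.17 (-0.11 without wildtype replicate 3). Ctsc, which activates serine peptidases of blood cell granules, differed by -0.26 and was the cathepsin for which wildtype replicate 3, with 985 normalized counts, was the lowest wildtype library; without it the difference was -0.33 (adjusted p = 0.108). Ctsa, the serine carboxypeptidase that also protects neuraminidase 1 and beta-galactosidase in a complex, differed by -0.20 (-0.12 without that library). Ctsz, a carboxypeptidase, differed by -0.23 with overlapping libraries, and by -0.04 without wildtype replicate 3.

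Beside the cathepsins, Tpp1, a tripeptidyl peptidase, and Ppt1, which removes fatty acids from proteins, were also lower in the libraries labelled FactorB KO. Ppt1 had 6207, 5952 and 5884 normalized counts in libraries labelled FactorB KO, against 6491, 6186 and 7819 in libraries labelled wildtype, and the groups overlapped by a small margin. The log2 difference was -0.18 for Ppt1 (adjusted p = 0.444) and -0.31 for Tpp1 (adjusted p = 0.300). Without wildtype replicate 3 the differences were -0.08 and -0.16.

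**Figure D3:**
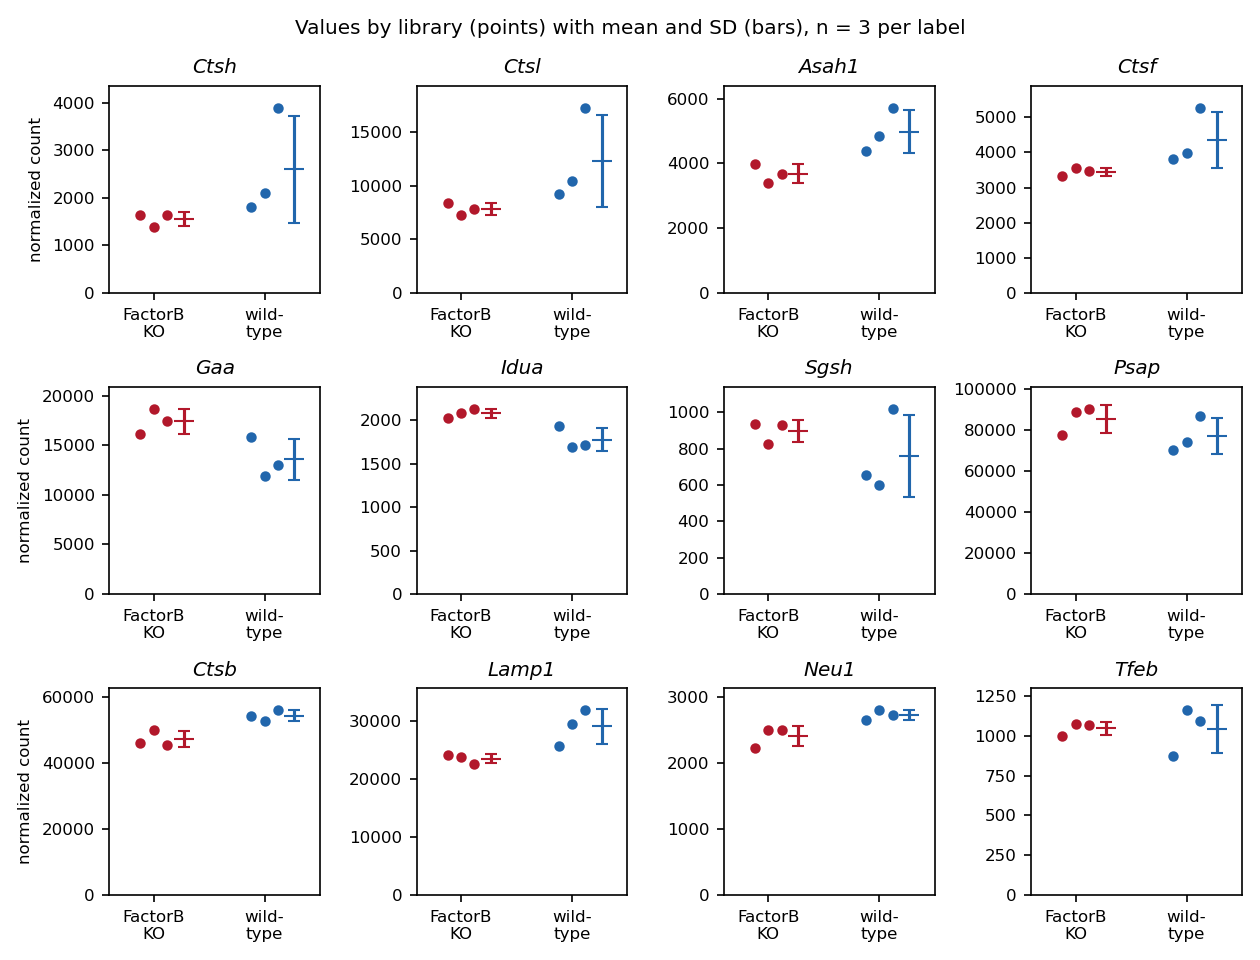
Normalized counts of 12 lysosomal genes in each library (points), with the mean and SD of the 3 libraries of each label (bars), libraries labelled FactorB KO on the left and wildtype on the right of each panel; axes start at 0. The highest wildtype points of Ctsh (3888), Ctsl (17248) and Sgsh (1018) are replicate 3, while Gaa and Idua lie higher in all 3 libraries labelled FactorB KO.

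The lysosomal glycosidases of glycogen and glycoproteins were divided, with 2 of 4 lower and 2 of 4 higher. Gaa, the acid alpha-glucosidase that degrades glycogen, had 16083, 18623 and 17448 normalized counts in libraries labelled FactorB KO, against 15863, 11862 and 12949 in libraries labelled wildtype. It was the highest gene of this role and the one member of the 36 with an interval wholly above 0. Its log2 difference was 0.37 (SE 0.15, 95% interval 0.02 to 0.72, adjusted p = 0.235), a 1.28-fold higher mean, with a range of 0.28 to 0.49 when any 1 library was left out. Manba, the lysosomal beta-mannosidase, averaged 2034 ± 203.4 normalized counts in libraries labelled FactorB KO and 2385 ± 946.5 in those labelled wildtype (SD, n = 3 each). The wildtype mean of Manba rested on the 3474 counts of replicate 3: its log2 difference was -0.17 with that library and 0.14 without it. Man2b1, the alpha-mannosidase, differed by 0.08, and by 0.26 without wildtype replicate 3 (adjusted p = 0.130).

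Neu1, the lysosomal sialidase, is encoded 68.7 kb from Cfb on chromosome 17 (chr17:34931253-34935953, mm10). Tfeb, the other of the 36 genes on that chromosome, lies 12.9 Mb away. Neu1 had 2232, 2496 and 2500 normalized counts in libraries labelled FactorB KO, against 2646, 2801 and 2733 in libraries labelled wildtype. The groups did not overlap, and the wildtype libraries were the closer set. Neu1 had a log2 difference of -0.18 (SE 0.10, adjusted p = 0.346) with and without wildtype replicate 3. The part of its position in this difference was not tested.

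The enzymes that degrade glycosaminoglycans, the chains of proteoglycans, showed no common direction, with 3 of 6 lower and 3 of 6 higher. Idua, the alpha-iduronidase, had 2019, 2085 and 2126 normalized counts in libraries labelled FactorB KO, against 1929, 1687 and 1713 in libraries labelled wildtype, with no overlap. Its log2 difference was 0.23 (SE 0.10, adjusted p = 0.269), and 0.20 without wildtype replicate 3. Exons of Idua overlap Slc26a1 and Dgkq on the other strand, and Dgkq averaged 2454 ± 205.0 normalized counts in libraries labelled FactorB KO and 1898 ± 418.0 in those labelled wildtype (SD, n = 3 each). The strand setting of the read counting is unknown, so the values of such overlapping genes are uncertain. Exons of 14 of the 36 genes overlap another annotated gene. In 3 of these, Ctsd, Ctsl and Glb1, a gene on the same strand is among them, and in the other 11 (Arsa, Arsb, Cln3, Ctsa, Ctsb, Ctsz, Galc, Idua, Lamp1, Ppt1 and Sgsh) the overlap is with genes on the other strand.

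Sgsh, the heparan N-sulfatase, had 934, 827 and 932 normalized counts in libraries labelled FactorB KO, against 654, 603 and 1018 in libraries labelled wildtype. Wildtype replicate 3 was the highest library and the other 2 wildtype libraries the lowest. The log2 difference of Sgsh was therefore 0.28 over all libraries (SE 0.21, adjusted p = 0.483) and 0.51 without that library (SE 0.12, adjusted p = 0.0601). Ids, the iduronate sulfatase and the most counted gene of this role, had 8888, 8414 and 8033 normalized counts in libraries labelled FactorB KO, against 9020, 9526 and 8487 in libraries labelled wildtype. Its groups overlapped, and its log2 difference was -0.09 (SE 0.11, adjusted p = 0.654; -0.14 without wildtype replicate 3). Arsb, a sulfatase of dermatan and chondroitin sulfate, differed by 0.10, Gusb, the beta-glucuronidase, by -0.09, and Naglu, a heparan sulfate glucosaminidase, by -0.07. Without wildtype replicate 3, 5 of the 6 genes of this role were higher, Ids being the exception, with differences of 0.16 for Arsb, 0.05 for Gusb and 0.12 for Naglu.

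Among the genes of sphingolipid and sterol ester breakdown, 6 of 9 were lower. Asah1, the acid ceramidase, had 3976, 3397 and 3658 normalized counts in libraries labelled FactorB KO, against 4385, 4857 and 5704 in libraries labelled wildtype. It came closest to the threshold of the 36 genes, with a 1.35-fold lower mean and no overlap between the labels. The log2 difference of Asah1 was -0.43 (SE 0.13, 95% interval -0.74 to -0.12, adjusted p = 0.176). Over the alternatives its adjusted p ranged from 0.0843 to 0.491, and without wildtype replicate 3 the difference was -0.33 (adjusted p = 0.101).

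Psap, which encodes the precursor of the saposins that present sphingolipids to these hydrolases, was the most counted of the 36 genes, also per kilobase of transcript. It had 77668, 88505 and 90097 normalized counts in libraries labelled FactorB KO, against 69966, 73857 and 86791 in libraries labelled wildtype. The groups overlapped, and the log2 difference was 0.16 (SE 0.19, adjusted p = 0.688; 0.25 without wildtype replicate 3). Arsa, which desulfates the myelin lipid sulfatide, had 1686, 1530 and 1766 normalized counts in libraries labelled FactorB KO, against 1577, 1613 and 1410 in libraries labelled wildtype, an overlapping difference of 0.11 on the log2 scale (adjusted p = 0.596; 0.06 without wildtype replicate 3). Galc, which degrades galactosylceramide of myelin, averaged 2561 ± 149.3 normalized counts in libraries labelled FactorB KO and 2601 ± 174.5 in those labelled wildtype (SD, n = 3 each), with a log2 difference of -0.02 and an interval of -0.27 to 0.22 (-0.07 without wildtype replicate 3). The 2 genes thus had intervals that lie within a 1.5-fold change in either direction.

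Smpd1, the acid sphingomyelinase, had 7451 normalized counts in wildtype replicate 3, and between 4336 and 4727 in the other 5 libraries. Its log2 difference of -0.27 was -0.03 without that library. Hexa, a subunit of beta-hexosaminidase, differed by -0.09 (0.09 without wildtype replicate 3), Glb1, the beta-galactosidase, by -0.11 (-0.06 without that library), and Lipa, the lysosomal acid lipase, by -0.10 (-0.23 without that library, which had its lowest value). Gla, the alpha-galactosidase, was the most even gene, with 971, 978 and 990 normalized counts in libraries labelled FactorB KO, against 963, 949 and 944 in libraries labelled wildtype. Its groups did not overlap, yet its means differed by 1.03-fold (log2 difference 0.04, adjusted p = 0.849).

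The 5 membrane proteins were all at a lower level in the libraries labelled FactorB KO (median log2 difference -0.25, and -0.18 without wildtype replicate 3, again 5 of 5). Lamp1, a major glycoprotein of the lysosomal membrane, had 24080, 23727 and 22566 normalized counts in libraries labelled FactorB KO, against 25705, 29539 and 31836 in libraries labelled wildtype. The groups did not overlap, and the 3 libraries labelled FactorB KO were close together. Lamp1 had a log2 difference of -0.30 (SE 0.14, adjusted p = 0.278), which ranged from -0.39 to -0.23 when any 1 library was left out. Lamp2, its relative with a role in autophagy, averaged 10444 ± 1147 normalized counts in libraries labelled FactorB KO and 13455 ± 2479 in those labelled wildtype (SD, n = 3 each), a log2 difference of -0.36 (adjusted p = 0.279; -0.21 without wildtype replicate 3), with overlapping libraries. Cln3, a membrane protein mutated in a neuronal ceroid lipofuscinosis, differed by -0.25 without overlap. Scarb2, the receptor that carries beta-glucocerebrosidase to lysosomes, differed by -0.03, with an interval of -0.27 to 0.20, and Mcoln1, a calcium channel of the lysosome, by -0.07 (-0.14 without wildtype replicate 3).

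Grn, the precursor of progranulin and lysosomal granulins, had 4584, 4358 and 5059 normalized counts in libraries labelled FactorB KO, against 3964, 4603 and 6464 in libraries labelled wildtype. Wildtype replicates 1 and 3 were its lowest and highest libraries. Its log2 difference was -0.07 (adjusted p = 0.854), and 0.12 without wildtype replicate 3.

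Tfeb, the transcription factor that drives lysosomal genes, had 997, 1072 and 1071 normalized counts in libraries labelled FactorB KO, against 875, 1161 and 1094 in libraries labelled wildtype. Tfeb had a log2 difference of 0.01 (SE 0.14, 95% interval -0.31 to 0.34, adjusted p = 0.966; 0.05 without wildtype replicate 3), with overlapping libraries. Many promoters of the 36 genes carry the letters that this family of factors is known to bind. Promoter sequences from RefSeq (GRCm38.p6, 250 bases before to 50 bases after the start) were matched for 33 of the 36 genes by symbol; Ctsb, Ctsh and Asah1 were not matched. The motif CACGTG was found in 13 of these 33 genes, or 39.4%, against 10.7% of 13558 genes of the table with a promoter. The longer motif GTCACGTG, which contains CACGTG and was searched on both strands, was found in 10, or 30.3%, against 4.1%. The site nearest to the start in each of these 10 genes is printed because it is what these promoters share; capitals mark the motif on the gene's strand, where CACGTGAC is the same motif read from the other strand.
Ctsa, chr2:164833768-164833795, plus strand: tgcagatgctCACGTGACcagagctaca
Ctsd, chr7:142387908-142387935, minus strand: gcccgcgtctCACGTGACccgttgaggg
Naglu, chr11:101070009-101070036, plus strand: caaccttcagGTCACGTGgcccgaggtc
Sgsh, chr11:119355522-119355549, minus strand: gcctgccgtgCACGTGACcgtggggagc
Gla, chrX:134601184-134601211, minus strand: tgagatctcgGTCACGTGagcaactctc
Glb1, chr9:114401018-114401045, plus strand: ctgcttctgaGTCACGTGgcctacagag
Arsa, chr15:89477425-89477452, minus strand: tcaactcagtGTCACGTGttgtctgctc
Lamp1, chr8:13159123-13159150, plus strand: tgccgactggCACGTGACcacatcacgt
Cln3, chr7:126583340-126583367, minus strand: cgggtactgtCACGTGACccccaacctg
Mcoln1, chr8:3500464-3500491, plus strand: gcgccccgctCACGTGACcgcggcgcat

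Genes with and without these letters had close medians. The 10 genes with GTCACGTG (7 of them lower in the libraries labelled FactorB KO) had a median log2 difference of -0.09, and the 23 genes without it (17 lower) also -0.09. For CACGTG the medians were -0.11 over 13 genes and -0.09 over 20 genes. A match is a run of letters in a window and not a measured binding site, and binding was not measured here.

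**Figure D4:**
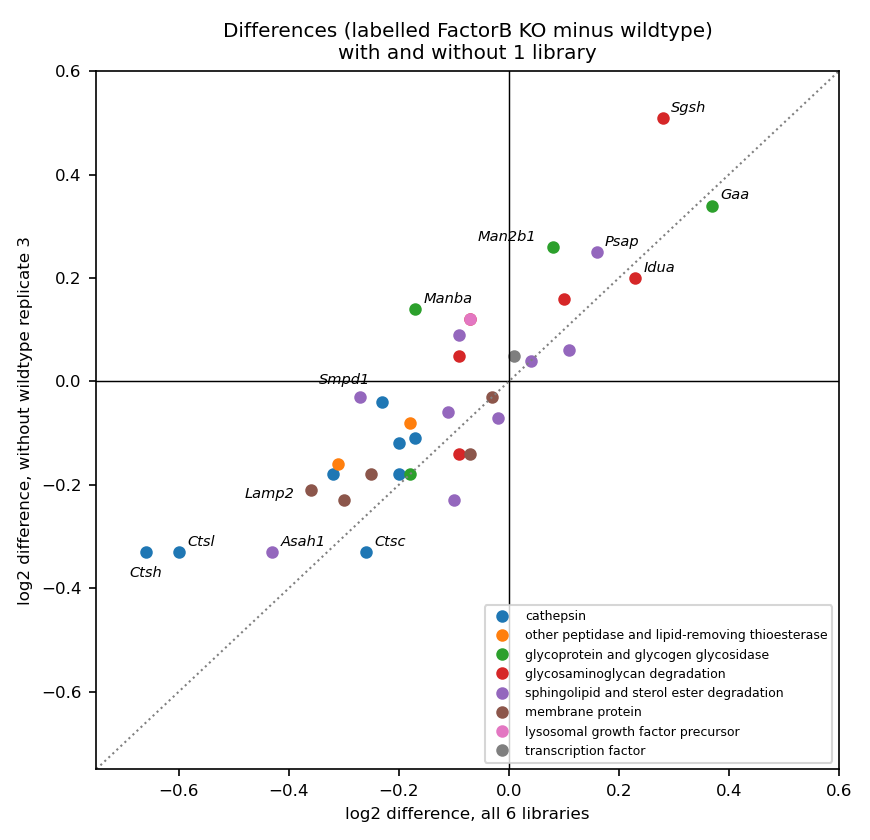
Log2 differences of the 36 genes, libraries labelled FactorB KO minus wildtype, over all 6 libraries (horizontal) and without wildtype replicate 3 (vertical), coloured by role; the dotted line marks equal values. Ctsh and Ctsl come nearer to 0 on the vertical axis (-0.33 each), Sgsh moves away from 0 (0.51), and Manba changes sign (0.14).

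Other genes of the lysosome gave a mixed picture by list. The list counts stand against 49.2% of all genes lower. At an unadjusted p under 0.05, 9.2% of all genes were lower and 10.8% higher. The authors' deposited table called 7.39% of all genes with a rate. Of 37 other soluble hydrolases and cofactors, 28 were lower and 0 passed by limma (7 had an unadjusted p under 0.05, all lower), with a median log2 difference of -0.17 that became -0.02 without wildtype replicate 3. The authors' deposited table called 1 of them, Rnaset2a, a lysosomal ribonuclease, 1.57-fold lower; it had 1271, 1440 and 1385 normalized counts in libraries labelled FactorB KO, against 1869, 1961 and 2594 in libraries labelled wildtype. Its close copy Rnaset2b averaged 798.3 ± 239.7 normalized counts in libraries labelled FactorB KO and 719.7 ± 216.4 in those labelled wildtype (SD, n = 3 each), and how reads were divided between the copies was not tested. Of 18 genes that sort enzymes to the lysosome, 9 were lower, 0 passed by limma (5 had an unadjusted p under 0.05, all lower) and 0 were called in the authors' deposited table. The most counted were Sort1, the sorting receptor sortilin, with a log2 difference of 0.25 (0.41 without wildtype replicate 3), and Vps35, a subunit of the retromer, with -0.29. Without wildtype replicate 3, Igf2r, the large mannose 6-phosphate receptor, passed with a log2 difference of 0.88 (adjusted p = 0.0441), against 0.53 (adjusted p = 0.363) over all libraries. Igf2r is named because it is the 1 gene of this list that passed there. With a correction for transcript length, its difference over all libraries was 0.12.

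Of 32 other membrane proteins, 19 were lower, 0 passed by limma (10 had an unadjusted p under 0.05, 9 lower and 1 higher) and 1, Tmem9, was called in the authors' deposited table, 1.34-fold lower. Without wildtype replicate 3, the channel gene Tpcn1 passed, with a log2 difference of 0.81 (adjusted p = 0.035), against 0.50 (adjusted p = 0.346) over all libraries. Tpcn1 too is named after its values were seen. With the length correction, its difference over all libraries was 0.35. Of 18 genes of the TFEB family and of nutrient sensing at the lysosome, 12 were lower and 0 passed by limma (9 had an unadjusted p under 0.05, 6 lower and 3 higher), with a median of -0.20 (-0.10 without wildtype replicate 3). The authors' deposited table called 6 of them, 4 lower and 2 higher. The largest were Rptor, the mTORC1 scaffold, 1.61-fold higher, Lamtor5 and Lamtor3, Ragulator subunits, 1.49-fold and 1.42-fold lower, and Tsc1, an inhibitor of mTORC1, 1.43-fold higher, all by that table. By limma their log2 differences were 0.71, -0.56, -0.50 and 0.53 in that order. These came nearer to 0 with a correction for transcript length, at 0.42, -0.28, -0.29 and 0.18.

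The vacuolar proton pump was the 1 lysosome list with a gene that passed. Of its 20 genes, 17 were lower, with a median log2 difference of -0.23 (-0.31 without wildtype replicate 3), and Atp6v0c, the proteolipid ring subunit, fell. It had 4068, 4308 and 4514 normalized counts in libraries labelled FactorB KO, against 14028, 16221 and 15604 in libraries labelled wildtype, a log2 difference of -1.83 (SE 0.11, adjusted p = 0.00616). It no longer passed without FactorB KO replicate 1, 2 or 3, with an adjusted p of 0.158, 0.108 and 0.0727 in that order and log2 differences of -1.79, -1.83 and -1.87. The processed copy Atp6v0c-ps2 had 5303, 6739 and 4908 normalized counts in libraries labelled FactorB KO, against 1230, 1641 and 758 in libraries labelled wildtype, a log2 difference of 2.28 (adjusted p = 0.0481). This copy also did not pass under 9 of the 14 alternatives, with an adjusted p of up to 0.315. The 2 genes moved in opposite directions, and how reads were divided between them was not tested, so both values are uncertain. By limma 9 pump genes had an unadjusted p under 0.05, 8 lower and 1 higher. The authors' deposited table called 7 of the 18 pump genes with a rate, all lower, where it called 7.39% of all genes with a rate; after Atp6v0c the largest were Atp6v0e (1.96-fold), Atp6v1g1 (1.57-fold), Atp6v1f (1.56-fold) and Atp6v1d (1.39-fold). Without wildtype replicate 3, Atp6v1f passed by limma as well (log2 difference -0.62, adjusted p = 0.0441). The log2 difference of Atp6v0e was -0.88 over all libraries and -0.56 without that library. With the length correction over all libraries, Atp6v1f went from -0.64 to -0.32, Atp6v1g1 from -0.64 to -0.41 and Atp6v0c from -1.83 to -1.6. Atp6v1d went the other way, from -0.47 to -0.54, and Atp6v0e stayed nearly the same.

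Several marker lists of other cells also had their highest level in wildtype replicate 3, the library that was high in lysosomal genes. The red cell and marrow genes were lower under the FactorB KO label without that library too, with median log2 differences of -1.85 and -2.22. For the macrophage genes the mean deviation from the 6-library mean was 0.08 in wildtype replicate 3 and also 0.08 in FactorB KO replicate 1. The mean deviation of the 36 genes from their 6-library mean was -0.05, -0.09 and -0.05 on the log2 scale in FactorB KO replicates 1, 2 and 3, against -0.04, -0.01 and 0.24 in wildtype replicates 1, 2 and 3. For the 6 pigment cell markers in the table it was 2.73 in wildtype replicate 3 and between -1.59 and 0.75 in the other libraries, with Tyr at 8, 17 and 207 normalized counts in libraries labelled FactorB KO, against 3, 268 and 3775 in libraries labelled wildtype. Pigment cells make melanosomes, organelles related to lysosomes. The summed level of 13 red cell genes was 2738 to 4032 in the libraries labelled FactorB KO and 10882 to 34822 in those labelled wildtype, the highest in replicate 3, and that of 14 neutrophil and marrow genes was 51 to 774 in the libraries labelled FactorB KO and 888 to 2709 in those labelled wildtype. In these 2 lists 3 and 5 genes were at 0 in at least 1 library, and Hbb-b2 and Hbb-bt were listed with identical values. The 20 macrophage genes summed to 18848 to 21087 in the libraries labelled FactorB KO and 20084 to 25261 in those labelled wildtype, the highest in replicate 3, with 13 lower, a median log2 difference of -0.13 and no marker at 0. Csf1r, the receptor that defines macrophages, had 3299, 3228 and 2924 normalized counts in libraries labelled FactorB KO, against 2993, 2602 and 2835 in libraries labelled wildtype. The 8 osteoclast genes summed to 1421 to 1730 in the libraries labelled FactorB KO and 1578 to 2193 in those labelled wildtype, the highest in replicate 3, with Dcstamp at 0 in at least 1 of the 6 libraries and Ctsk, the bone-degrading cathepsin, at 555, 456 and 551 normalized counts in libraries labelled FactorB KO, against 635, 765 and 1034 in libraries labelled wildtype. Among further highly counted markers, the log2 difference was -2.04 for Hba-a1 and -2.44 for Hbb-b1, and both passed without wildtype replicate 3, with -1.61 (adjusted p = 0.0026) and -1.85 (adjusted p = 0.0158). It was -2.22 for Ltf (-4.01 to -0.09 when any 1 library was left out), -3.02 for S100a9 (-3.60 to -2.03) and -2.12 for Slc45a2 (0.09 without wildtype replicate 3). Without that library it was also farther from 0 for Nfatc1 (0.24, then 0.42), Mbp (-0.21, then -0.45), Calb2 (-0.15, then -0.28) and Snap25 (-0.12, then -0.47). Of the 18 spiral ganglion neuron genes, 8 were lower and 10 higher, with a median log2 difference of 0.11. The authors' deposited table called 2 of them, both higher, against 7.39% of all genes with a rate. Without wildtype replicate 3, 11 were lower and 7 higher, with a median of -0.17. Of the 14 peripheral myelin genes, 11 were lower and 3 higher, with a median log2 difference of -0.23, and 0 passed by limma. The authors' deposited table called 3 of the 14, all lower. Without wildtype replicate 3, 13 were lower, with a median of -0.45, and 2 passed, against 3.21% of all genes tested. The part that cells of these types play in the lysosomal differences was not tested.

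**Figure D5:**
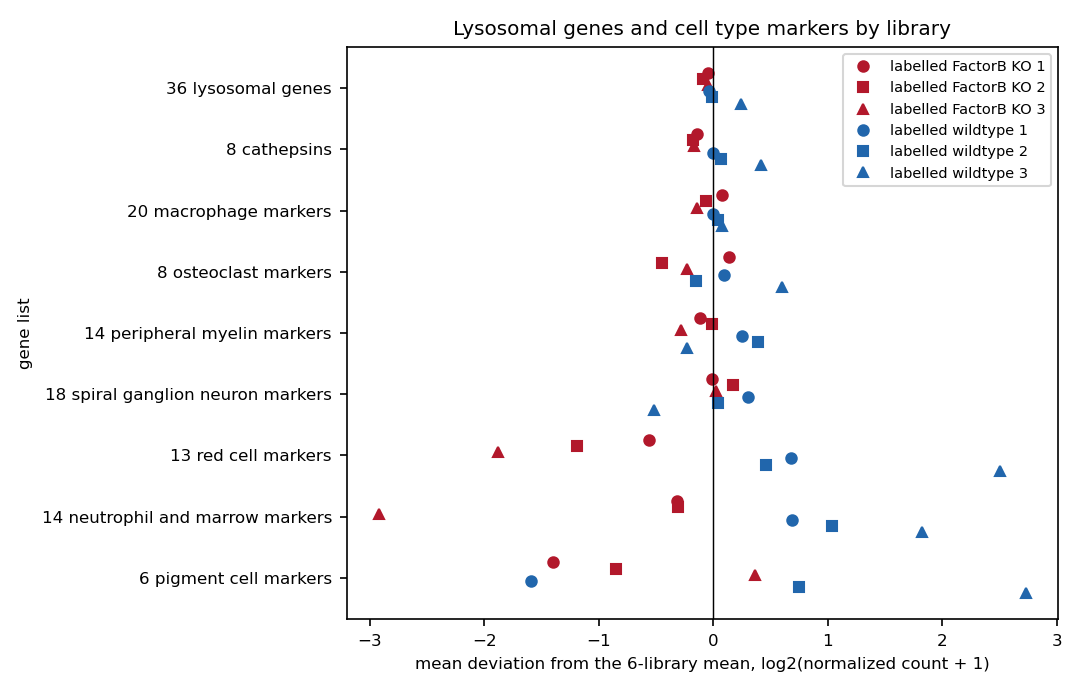
Mean deviation of the 36 lysosomal genes, the 8 cathepsins and 7 lists of cell type markers from their 6-library means, as log2(normalized count + 1), by library; red symbols are libraries labelled FactorB KO and blue symbols libraries labelled wildtype. Wildtype replicate 3 (blue triangle) is the highest library for the lysosomal genes (0.24), the cathepsins (0.42), and the osteoclast (0.60), pigment (2.73), red cell (2.50) and marrow (1.82) markers, and the lowest for the neuronal markers (-0.52).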

How the data were processed

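Auditory nerve RNA of 6 mice, 3 per label, was sequenced from TruSeq libraries. The submitters' processing notes list TopHat2, Partek, DESeq2 and mm10 but no version or role. Strand setting, annotation and read depth: not given in the sources used here. Values in the deposited table are a score, whole-number gene counts scaled per sample by the authors. This reading rests on median-of-ratios factors of 1.0038 to 1.0068 and on the deposited fold change, within 1% of the ratio of column means in 99.8% of the 13938 genes whose 2 means exceed 50. It also gives the authors' signed fold change (a score per the file headers) and a false discovery rate, a q-value that 2061 genes lack. No 2 libraries agreed within sampling noise (chi-square per gene 23.7 or more). Of the columns with sample values, 0 went unused.

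Because the values are scaled, no count test was run. Limma 3.58.1 (R 4.3.3) fitted log2(value + 1) with label as the only term and a trend on the mean, for all 17666 genes (a minimum mean of 1 removed 0), with Benjamini-Hochberg adjustment and a threshold of 0.05. This scale understates changes of low genes. With 3 against 3, an exact permutation test of 1 value cannot go below p = 0.1. The fit was tested on simulated data in which each gene had the same spread under both labels. In the real data the wildtype libraries mostly varied more, which that simulation does not cover. Transcript lengths, from GENCODE M21 (mm10), were found for 98.1% of genes. The members, lists and tests were chosen with earlier results of these data known. Values in every library are given for genes past the threshold, the 4 lowest p in each direction, the most counted gene of each role, and, chosen after their values were seen, Neu1 and Gla. In the other lysosome lists, genes that passed limma or were called by the authors are named, up to 4 each, otherwise the 2 most counted; in marker lists, the 2 most counted, some of which are not reported here.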

Additional observations from a re-analysis of the deposited data

How the results depend on the processing

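Under all 14 alternatives (another pseudocount, filter, scaling by totals or quantiles, no trend, library weights, a replicate block, a transcript length correction, and each library left out), 0 of the 36 genes passed. The median of the 36 log2 differences stayed between -0.20 and -0.07. Of 504 differences, 483 kept their direction, and the 25 genes other than the 11 named next kept it throughout. The sign changed to -0.028 for Psap and -0.0034 for Tfeb with quantile normalization, to 0.028 for Manba, 0.060 for Naglu, 0.019 for Hexa and 0.056 for Grn with library weights, and to 0.0093 for Hexa and 0.028 for Mcoln1 with the length correction. Leaving out 1 library gave -0.074 to 0.026 for Galc, -0.11 to 0.10 for Tfeb, -0.022 to 0.26 for Man2b1, -0.23 to 0.034 for Lipa, -0.35 to 0.14 for Manba, -0.19 to 0.048 for Gusb, -0.21 to 0.12 for Naglu, -0.19 to 0.087 for Hexa and -0.23 to 0.12 for Grn. Among other named genes, the sign changed to 0.12 for Mbp with quantile normalization, and to 0.13 for Mbp, 0.038 for Calb2 and -0.052 for Sort1 with the length correction. Leaving out 1 library gave -0.45 to 0.046 for Mbp, -0.13 to 0.40 for Rnaset2b, -0.47 to 0.071 for Snap25 and -4.57 to 0.095 for Slc45a2. The cause was not tested.

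Over the whole table, 28 genes passed. The number was 16 without a trend, 111 with library weights, 7 with the replicate block, and 0 to 566 when 1 library was left out (0 without any 1 library labelled FactorB KO, with 2218, 1797 and 1892 genes for replicates 1, 2 and 3 at an unadjusted p under 0.05, and 566 without wildtype replicate 3). The sample labels name no pairing by replicate number. Deviations of same-numbered libraries correlated at -0.06, 0.10 and 0.25 for numbers 1, 2 and 3, and not every library correlated best with its own number. With 3 libraries per label, these correlations cannot decide whether samples were paired. In a promoter window of 100 bases before to 50 bases after the start, CACGTG was found in 9 of 33 genes, or 27.3%, against 6.8% of all genes with a promoter. There GTCACGTG was found in 8, or 24.2%, against 3.11%. Read depth is unknown, and each label has 3 samples.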
